A study of Mus musculus with 30 samples.

Results

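The genes described here encode the factors that make ribosomes: 46 ribosome biogenesis genes, chosen by gene symbol from the roles their products play. Of these, 45 were measured by a probe set that the platform annotation gives to a single gene, among 19938 genes measured in all. The exception was Noc2l, which was not analysed here. Where a gene had several such probe sets, the one with the highest mean over the 30 arrays was used. The rule uses gene symbols and no level measured on the arrays beyond that mean, but the genes were chosen with earlier results of these data known.

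RNA was measured on Affymetrix Mouse Gene 1.0 ST arrays in satellite cells (SCs), the stem cells of skeletal muscle, sorted from mouse hindlimb. Activated SCs (ASCs) were taken 36, 60 or 84 h after injury by injection of BaCl2, which kills muscle fibres, and quiescent SCs (QSCs) came from uninjured muscle. There were 10 groups of 3 arrays. Old VCAM-sorted cells were ASCs at 60 h and QSCs from C57BL6 wild type mice aged 22 to 24 months. Young VCAM-sorted cells were QSCs and ASCs at all 3 times from C57BL6 wild type mice aged 2 to 3 months. Both were sorted as VCAM+/CD31-/CD45-/Sca1- cells. Young YFP-sorted cells were QSCs and ASCs at all 3 times from mice of 2 to 3 months carrying Pax7CreER/+ and ROSA26eYFP/+ and given Tamoxifen. In these mice Cre is driven from the Pax7 locus, so YFP marks cells that expressed Pax7 at the time of treatment, and their descendants. Sort, genotype and Tamoxifen differ together between VCAM and YFP cells and cannot be told apart. Whether replicate arrays came from separate animals is not stated in the labels, so p-values measure the spread between arrays, which may be technical.

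Ribosomes are built in the nucleolus. RNA polymerase I transcribes a long ribosomal RNA precursor, small nucleolar ribonucleoproteins (snoRNPs) modify and help to fold it, and a large complex on its 5' part, the small subunit processome, releases the small subunit precursor. Other factors then assemble and export both subunits. Quiescent cells make few ribosomes, and stem cells that enter the cell cycle raise production before they divide. The 45 genes were grouped by role into rRNA transcription (7 genes), box C/D snoRNPs (4), box H/ACA snoRNPs (5), the small subunit processome (11), late maturation of the small subunit (4) and assembly of the large subunit (14).

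Values are log2 intensities normalised by the authors, and the text calls a gene higher or lower where its fold change was at least 1.5 with an adjusted p under 0.05. The pooled SD within groups was 0.03 to 0.09 among the 45 genes, with a median of 0.05, against a median of 0.10 over all genes. All 45 genes had a mean above the median gene, which stood at 7.35. The array medians lay between 7.03 and 7.16. The satellite cell markers averaged 11.61 to 11.66 in old VCAM QSCs, 12.08 to 12.11 in young VCAM QSCs and 11.84 to 11.94 in YFP QSCs. After injury their means were lower: 10.61, 10.16 and 10.48 at 36, 60 and 84 h in young VCAM cells. They were 11.20, 10.30 and 10.59 in YFP cells, and 10.47 in old cells at 60 h. Fibroblast markers had a mean of 11.83 in young VCAM ASCs at 36 h, against 10.35 in young VCAM QSCs. Macrophage markers were detected after injury in both sorts: their average was 9.60 to 9.72 in young VCAM ASCs at 36 h, against 6.34 to 6.42 in young VCAM QSCs. All 20 macrophage markers were called higher in that comparison, where 13.2% of all genes were. In bulk RNA, fewer cells of a type and less RNA per cell cannot be told apart.

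Ribosome biogenesis genes were higher in ASCs than in QSCs in young VCAM cells at all 3 times. At 36 h 31 of the 45 were called higher and 0 lower, where 13.2% of all genes were called higher and 9.72% lower. At 60 h 37 were higher and 0 lower (16.6% of all genes higher and 12.6% lower), and at 84 h 32 were higher and 0 lower (16.4% of all genes higher and 11.2% lower). The median log2 change of the 45 genes was 0.88 at 36 h, 1.19 at 60 h and 0.80 at 84 h, while that of all genes was -0.01, -0.04 and -0.03. The level of the set peaked at 60 h. In young VCAM cells 42 of 45 genes had their highest group mean at 60 h, Nop56 and Rrs1 had it at 36 h, and Nop58 had it in QSCs. The mean over the 45 genes was 9.72, 9.78 and 9.82 in the 3 QSC arrays, 10.57 to 10.62 at 36 h, 10.84 to 10.92 at 60 h and 10.50 to 10.52 at 84 h, with no overlap between neighbouring times. Cell type markers moved over the same times. Macrophage markers averaged 9.60 to 9.72 at 36 h, 7.74 to 7.87 at 60 h and 8.70 to 8.73 at 84 h. Satellite cell, endothelial, fibroblast, and pericyte and smooth muscle markers were lowest at 60 h, at means of 10.16, 7.08, 10.10 and 7.94. Differentiating muscle markers were highest at 84 h, at 10.61. The part of cell make-up in the 60 h peak was not tested.

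**Figure D1:**
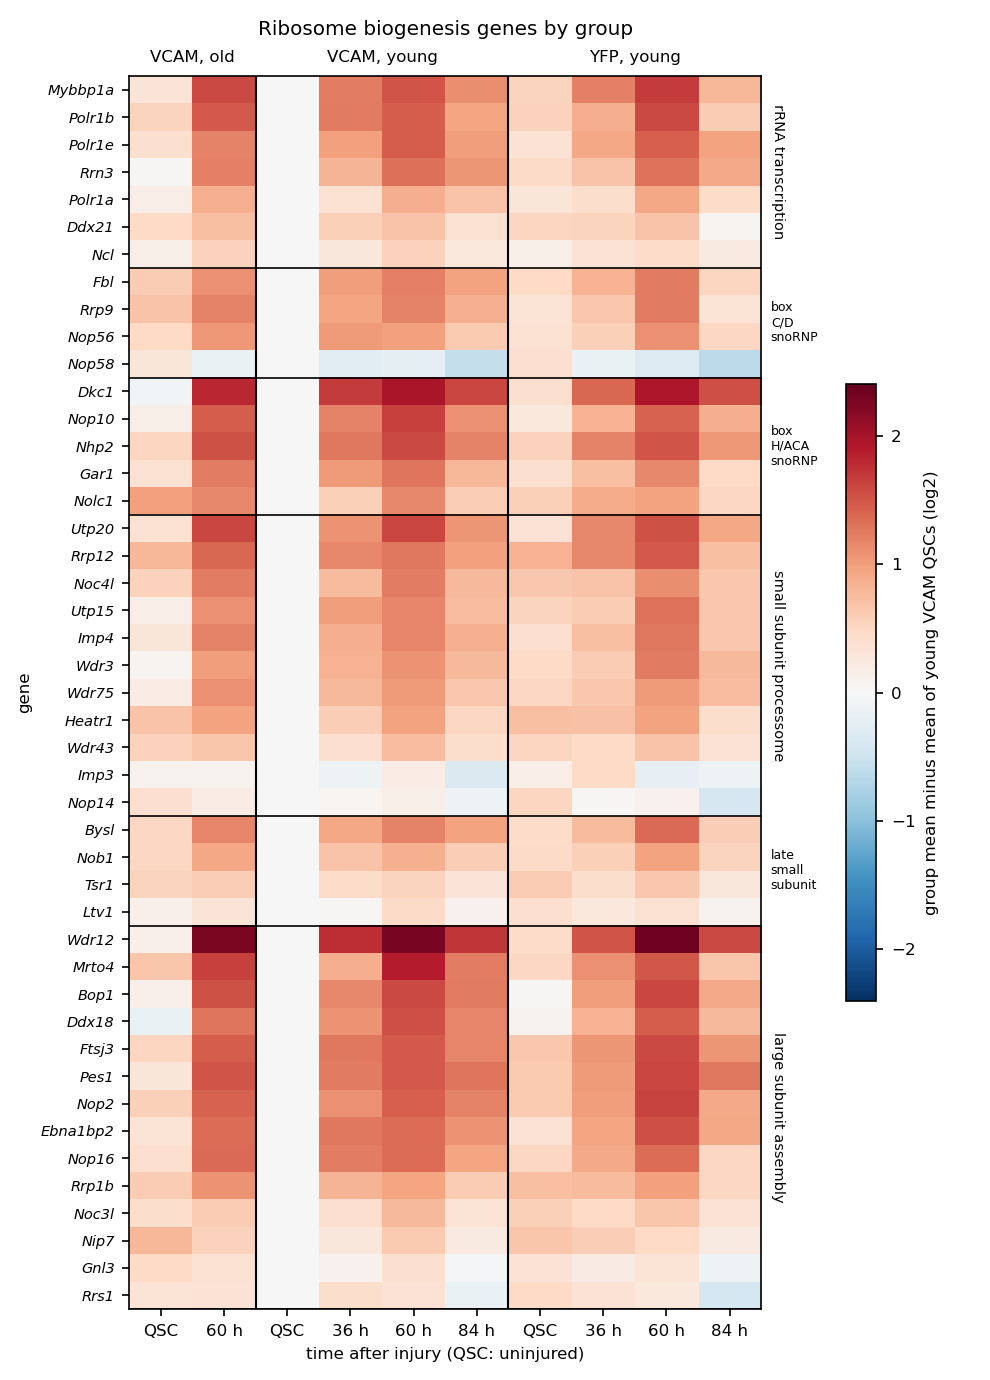
Group means of the 45 genes (rows, by role and by their change at 60 h in young VCAM cells) in the 10 groups (columns), as the difference on the log2 scale from the mean of young VCAM QSCs, whose column is 0 by construction. The 60 h columns are the reddest in each series, and Nop58 is below young VCAM QSCs in every ASC column.

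Large subunit and box H/ACA genes held the largest increases, with medians of 1.39 and 1.58 at 60 h. Wdr12, which with Bop1 and Pes1 forms the PeBoW complex of large subunit assembly (probe set 10550098, Entrez 57750), had the largest change of the 45. Its values in young VCAM cells were 8.54, 8.55 and 8.65 in QSCs, 10.31, 10.29 and 10.45 at 36 h, 10.79, 10.84 and 10.92 at 60 h, and 10.38, 10.28 and 10.25 at 84 h. All 9 ASC arrays were above all 3 QSC arrays, and at 60 h the log2 change was 2.27 (SE 0.06, a fold of 4.82, adjusted p = 8.4e-22). Of the 14 large subunit genes, 10, 12 and 10 were higher at 36, 60 and 84 h. Bop1 and Pes1 changed by 1.58 and 1.48 at 60 h, and Ddx18, a nucleolar helicase, by 1.54. Mrto4, a relative of the ribosomal stalk protein P0 that acts in large subunit assembly, changed by 1.88. At the other end stood Rrs1, an assembly factor for the 5S particle, at 10.41, 10.54 and 10.50 at 60 h, against 10.09, 10.14 and 10.19 in QSCs. Its change of 0.34 (SE 0.07, adjusted p = 2.3e-04) lay under the fold threshold, as did that of Gnl3, nucleostemin, at 0.39.

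All 5 box H/ACA genes were called higher at 60 h, with a median change of 1.58. Dkc1, the pseudouridine synthase of the particle (probe set 10600485, Entrez 245474), had 9.71, 9.81 and 9.72 in QSCs, 11.40, 11.42 and 11.43 at 36 h, 11.67, 11.68 and 11.80 at 60 h, and 11.39, 11.35 and 11.34 at 84 h. Its arrays at 60 h stood above those at 36 and 84 h, and its change against QSCs was 1.97 (SE 0.05, adjusted p = 4.5e-23). Its partners Nop10, Nhp2 and Gar1 changed by 1.63, 1.58 and 1.27. The smallest change of the class belonged to Nolc1, a snoRNP chaperone (probe set 10463535, Entrez 70769). Nolc1 had 9.86, 9.95 and 9.97 in QSCs, 10.51, 10.45 and 10.56 at 36 h, 11.02, 11.08 and 11.16 at 60 h, and 10.51, 10.49 and 10.56 at 84 h. It was called at 60 h (1.16, SE 0.05, adjusted p = 2.0e-17) and at 84 h (0.59), but not at 36 h, where its change of 0.58 fell just short of the threshold.

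The box C/D class was split. Fbl, the methyltransferase fibrillarin, had 9.70, 9.82 and 9.83 in QSCs, 10.77, 10.76 and 10.85 at 36 h, 10.98, 10.97 and 11.01 at 60 h, and 10.73, 10.75 and 10.80 at 84 h. It rose at every time, by 1.2 at 60 h (SE 0.05, adjusted p = 7.9e-18), as did Nop56, by 1.00, and the U3 protein Rrp9, by 1.19. Nop58, which pairs with Nop56 in the scaffold of the same particle (probe set 10346634, Entrez 55989), ran the other way. Its values were 12.43, 12.47 and 12.47 in QSCs, 12.17, 12.17 and 12.18 at 36 h, 12.21, 12.26 and 12.29 at 60 h, and 11.92, 11.88 and 11.84 at 84 h. Every ASC array was below every QSC array, but the changes of -0.28, -0.20 and -0.58 did not reach the fold threshold in young VCAM cells.

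Of the 7 rRNA transcription genes, 4, 6 and 5 were higher at 36, 60 and 84 h. Mybbp1a, a nucleolar protein that binds Myb (probe set 10378088, Entrez 18432), had 10.17, 10.17 and 10.20 in QSCs, 11.35, 11.39 and 11.47 at 36 h, 11.62, 11.71 and 11.70 at 60 h, and 11.30, 11.27 and 11.33 at 84 h. Its change at 60 h was the largest of the role (1.5, SE 0.05, adjusted p = 1.4e-19). The RNA polymerase I subunits Polr1b and Polr1e both changed by 1.46 at 60 h, the initiation factor Rrn3 by 1.32 and the largest subunit, Polr1a, by 0.87. Polr1a was not called at 36 h, where its change was 0.36. Nucleolin, Ncl, had 13.23, 13.15 and 13.20 at 60 h, against 12.58, 12.68 and 12.62 in QSCs. Its arrays did not overlap, and its change of 0.57 (SE 0.04, adjusted p = 8.9e-12) was just under the fold threshold.

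Small subunit genes moved in the same direction with more exceptions. Of 11 processome genes, 8, 9 and 7 were higher at 36, 60 and 84 h. Utp20, a large scaffold protein of the particle, had 10.86, 10.88 and 10.92 at 60 h, against 9.24, 9.36 and 9.27 in QSCs. That change of 1.60 (SE 0.04, adjusted p = 1.8e-21) was the largest of the role, and Rrp12, Noc4l, Utp15, Imp4, Wdr3 and Wdr75 changed by 1.03 to 1.25. Nop14 and Imp3, both also processome proteins, were not called at any time in these cells. Nop14 had 10.86, 10.91 and 10.95 at 60 h, against 10.74, 10.77 and 10.80 in QSCs, a change of 0.14 (SE 0.05, adjusted p = 0.012). Of the 4 late factors, Bysl and the 18S rRNA nuclease Nob1 were higher at all 3 times. Bysl had 9.46, 9.58 and 9.55 at 60 h, against 8.17, 8.40 and 8.46 in QSCs, a change of 1.19 (SE 0.06, adjusted p = 3.7e-15). Ltv1, an export factor, had 10.01, 10.02 and 10.18 at 60 h, against 9.49, 9.64 and 9.72 in QSCs, a change of 0.45 (SE 0.06, adjusted p = 3.0e-07). The GTPase-like factor Tsr1 changed by 0.54, so that neither Ltv1 nor Tsr1 was called.

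**Figure D2:**
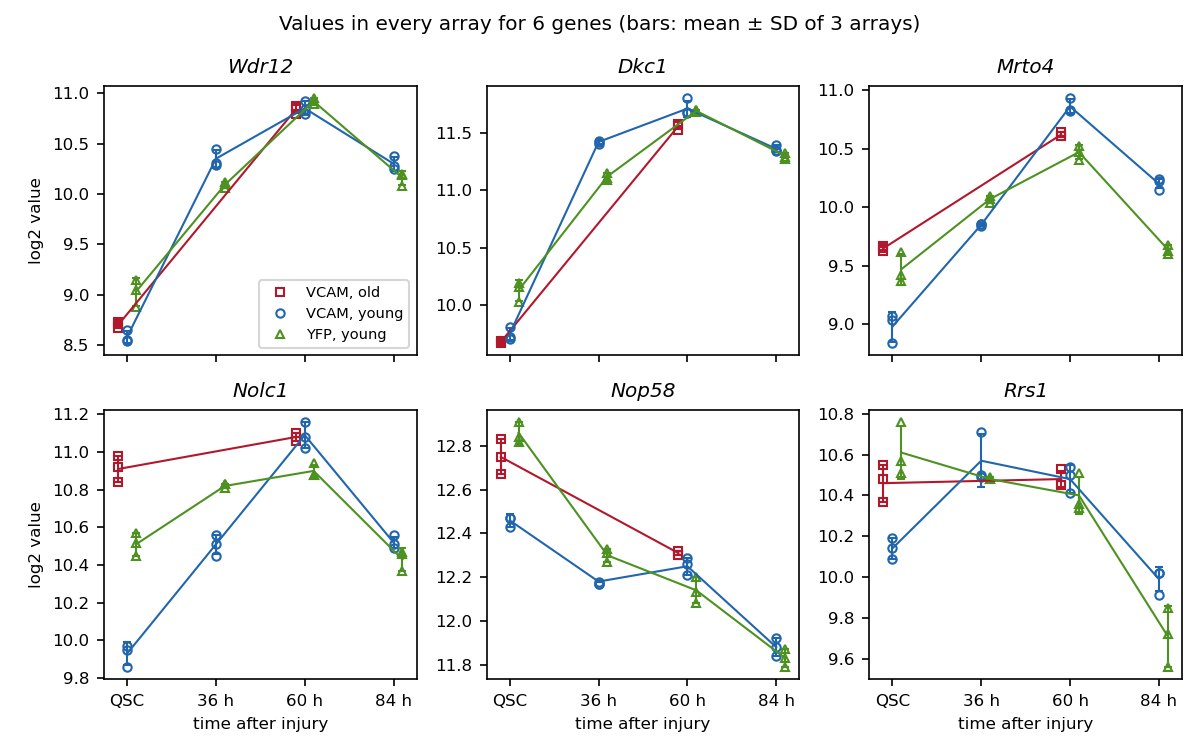
Log2 values of 6 genes in each of the 30 arrays against time after injury, with squares for old VCAM, circles for young VCAM and triangles for young YFP cells, and bars for the mean ± SD of 3 arrays. Wdr12 and Dkc1 climb to 60 h in all 3 series, Nolc1 and Mrto4 start higher in old than in young VCAM QSCs, and Nop58 is highest in QSCs.

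There were 4 of the 45 genes with 2 single-gene probe sets. At 60 h in young VCAM cells the change was 2.27 with either probe set of Wdr12, 1.54 and 1.69 for Ddx18, 1.88 and 1.92 for Mrto4, and 1.20 and 0.84 for Fbl, with the brighter set first. All 8 probe sets moved the same way. The brighter sets of Wdr12, Ddx18 and Fbl, whose values are the ones given throughout, carry numbers that lie among those of genes on another chromosome. Of their 20 nearest named sets, 18 were on chromosome 7 for Wdr12, 17 on chromosome 6 for Ddx18 and 17 on chromosome 17 for Fbl, while the genes lie on chromosomes 1, 1 and 7. Levels of these 3 genes are therefore uncertain, since a set may read a near-identical copy elsewhere in the genome, which was not tested.

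The sequence CACGTG, the E-box that proteins of the MYC and MAX family bind, was looked for in RefSeq promoter windows of GRCm38.p6, from 250 bases before to 50 after each gene's start. It reads the same on both strands. Of the 41 genes with a window, 9 held it (22.0%), against 2187 of 27025 genes with a window in all (8.09%). The larger set was not limited to the 19938 genes measured and was not matched for level. All 45 ribosome biogenesis genes, by contrast, had a mean above the median gene. Whether the shares differ among genes of like level was not tested. The 9 genes with the motif were Imp4, Ltv1, Mybbp1a, Nop2, Pes1, Rrn3, Tsr1, Utp20 and Wdr43. Of these 9 genes 7 were higher at 60 h in young VCAM cells, with a median change of 1.32, and of the 32 without it 27 were, with a median of 1.16. The 30 bases around the motif are shown for the 4 such genes with the largest change at 60 h, beside the same length from Nop58, the gene with the smallest change. Capitals mark the motif, which a match describes only as letters, not as a bound site. The stretches lie at chr10:88826765-88826794 (minus strand) for Utp20, chr11:72441347-72441376 for Mybbp1a, chr11:3963965-3963994 for Pes1, chr6:125131811-125131840 for Nop2 and chr1:59684976-59685005 for Nop58, the last 4 on the plus strand.
Utp20: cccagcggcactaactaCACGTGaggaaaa
Mybbp1a: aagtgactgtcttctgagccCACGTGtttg
Pes1: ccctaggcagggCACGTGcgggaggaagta
Nop2: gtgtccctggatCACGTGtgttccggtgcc
Nop58: agaaggagactcgcatatttgctgctccac

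Rrn3 was the only one of the 41 genes with a window that held the motif at 2 places. The 250 bases before its start (chr16:13780449-13780698, plus strand) show both, and were chosen after the values were seen.
Rrn3: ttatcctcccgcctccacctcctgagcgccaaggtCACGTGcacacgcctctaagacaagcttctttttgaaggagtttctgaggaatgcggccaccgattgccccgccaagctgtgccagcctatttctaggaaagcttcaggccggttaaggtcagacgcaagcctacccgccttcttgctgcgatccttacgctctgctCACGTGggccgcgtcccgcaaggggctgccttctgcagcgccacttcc

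Between successive times in young VCAM cells most changes were under the fold threshold. From 36 h to 60 h 43 of 45 changes were positive, with a median of 0.29, and those of Nop56 and Rrs1 were -0.03 and -0.09. Only Mrto4 was called (1 of 45, with 6.26% of all genes called higher and 8.49% lower). Mrto4 had 10.82, 10.83 and 10.93 at 60 h, against 9.86, 9.84 and 9.86 at 36 h, a change of 1.01 (SE 0.06, adjusted p = 7.8e-14). From 60 h to 84 h all 45 genes had a negative change, with a median of -0.36 and a range of -0.65 to -0.18. All 45 passed the adjusted p, where 13.4% of all genes were lower by the adjusted p alone, and the arrays of all 45 did not overlap, as for 19% of all genes. Mrto4 alone passed the fold threshold, at -0.65 (SE 0.06, adjusted p = 1.7e-09), where 3.22% of all genes were called higher and 0.732% lower.

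YFP cells also had their highest levels at 60 h for most genes, with smaller changes from QSCs. At 36 h 9 of the 45 genes were called higher and 0 lower (10.1% of all genes higher and 6.14% lower), and at 60 h 27 were higher and 1 lower (17.2% of all genes higher and 12.8% lower). At 84 h 7 were higher and 3 lower (17% of all genes higher and 11.2% lower). The median change was 0.31, 0.77 and 0.08 at 36, 60 and 84 h. With each array centred on its median the split at 36 h was 5 higher and 2 lower, and with quantile normalization that at 84 h was 5 higher and 4 lower. The 9 genes called at 36 h were Wdr12, Bop1, Dkc1, Utp20, Ddx18, Mybbp1a, Nhp2, Ebna1bp2 and Mrto4, with changes of 0.60 to 1.07. Wdr12 had 8.88, 9.05 and 9.15 in QSCs, 10.10, 10.06 and 10.12 at 36 h, 10.89, 10.95 and 10.92 at 60 h, and 10.19, 10.08 and 10.20 at 84 h. As in VCAM cells, 60 h was the highest of its 4 points, and the same held for 38 of the 45 genes. QSCs were the highest point for 6 genes, against 1 in young VCAM cells, and the lowest for 28 genes, against 40 in young VCAM cells.

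Levels were lower at 84 h than at 60 h in YFP cells as well. From 60 h to 84 h 20 of 45 genes were called lower and 0 higher, where 4.66% of all genes were called higher and 2.19% lower, with a median change of -0.52. The difference between the sorts in this step was not tested. The RNA polymerase I subunit Polr1b, which had 9.84, 9.80 and 9.92 at 84 h, against 10.79, 10.81 and 10.88 at 60 h, fell by 0.98. Rrp9, Mybbp1a, Nop16 and Mrto4 fell by 0.92, 0.89, 0.85 and 0.83. From 36 h to 60 h 11 genes were called higher and 1 lower (8.73% of all genes higher and 8.58% lower), with Wdr12 at 0.83 and Polr1b at 0.72. The one called lower was Imp3, a U3-associated processome protein. Imp3 had 10.07, 10.12 and 10.22 at 60 h, against 10.76, 10.82 and 10.84 at 36 h, a change of -0.67 (SE 0.05, adjusted p = 1.2e-11). With each array centred on its median that call was lost, and 18 genes were higher and 0 lower, while quantile normalization left 4 higher and 1 lower. Markers of other cells or stages also moved between 60 and 84 h in YFP cells. All 12 differentiating muscle markers were higher at 84 h, at an average of 10.90 to 10.93, against 8.69 to 8.79 at 60 h. Of 20 macrophage markers 17 were higher, at 9.43 to 9.48, against 8.36 to 8.48 at 60 h, as were 6 of 9 fibroblast markers. Their part in the lower levels at 84 h was not tested.

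Of the 45 genes 3 were called lower than QSCs at some time, all in YFP cells. Nop58 had 12.91, 12.84 and 12.82 in QSCs, 12.33, 12.27 and 12.31 at 36 h, 12.20, 12.08 and 12.13 at 60 h, and 11.83, 11.87 and 11.79 at 84 h. It was lower at each successive time, by 0.72 against QSCs at 60 h (adjusted p = 7.2e-14) and by 1.03 at 84 h (adjusted p = 3.7e-17), with no overlap between times. Nop14 had 10.40, 10.31 and 10.36 at 84 h, against 11.24, 11.25 and 11.39 in QSCs, and fell by 0.94 (SE 0.05, adjusted p = 1.1e-15). Rrs1 had 9.72, 9.85 and 9.56 at 84 h, against 10.76, 10.57 and 10.51 in QSCs, and fell by 0.91 (SE 0.07, adjusted p = 2.7e-11). The arrays of both genes at 84 h lay below all those of QSCs. In young VCAM cells their changes at 84 h were -0.12 and -0.15, neither of them called.

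The difference between the sorts was tested as the change from QSCs in VCAM cells minus that in YFP cells. At 36 h 24 of 45 genes were called higher in VCAM cells and 0 lower, where 4.47% of all genes were called higher and 4.61% lower. At 60 h 9 were higher and 0 lower (2.21% of all genes higher and 2.78% lower), and at 84 h 27 were higher and 0 lower (2.71% of all genes higher and 3.84% lower). The change was larger in VCAM cells for 44 of the 45 genes at each time. The 45 changes in the 2 sorts, which share no array, had a Pearson correlation across genes of 0.82 at 36 h, 0.95 at 60 h and 0.90 at 84 h, given as a description since genes are not independent. Polr1b had 10.49, 10.44 and 10.52 in VCAM ASCs at 36 h, against 9.28, 9.13 and 9.32 in VCAM QSCs. In YFP cells it had 10.10, 10.13 and 10.09 at 36 h, against 9.76, 9.83 and 9.82 in QSCs. The changes differed by 0.94 (SE 0.07, adjusted p = 4.8e-11). Both the lower QSC level and the higher 36 h level in VCAM cells entered that difference. Utp15, a processome protein, differed by 0.94 as well, with a change of 1.02 in VCAM cells and 0.08 in YFP cells. Pes1 and Ftsj3, both of the large subunit pathway, each differed by 0.85, with changes in VCAM cells of 1.25 and 1.26 and in YFP cells of 0.40 and 0.42. Of 33 DNA replication genes 2 were called in the same comparison at 36 h, not far from the shares of all genes (4.47% higher and 4.61% lower). Endothelial markers moved with the difference: all 12 were called lower in the same comparison, as were 7 of 12 satellite cell markers, and their part in it was not tested.

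**Figure D3:**
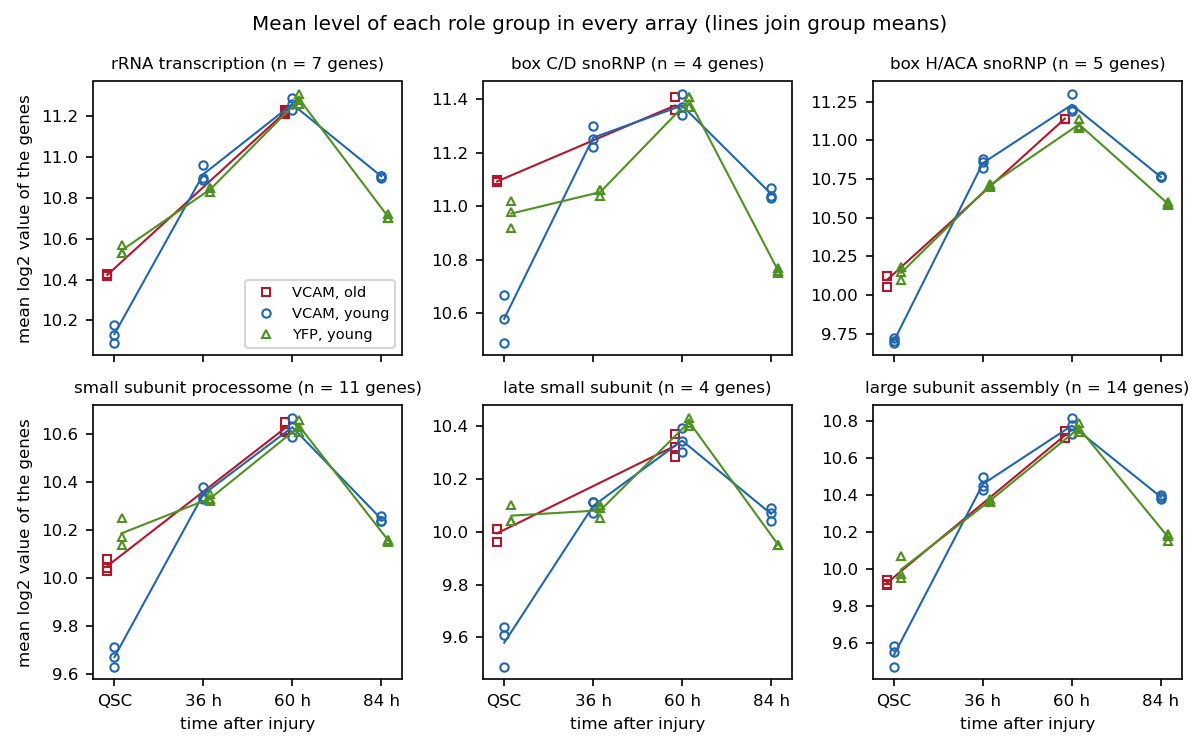
Mean log2 value of the genes of each role in every array against time after injury, with squares for old VCAM, circles for young VCAM and triangles for young YFP cells, and lines joining group means. In all 6 panels young VCAM QSCs lie below the other QSCs, and the groups come together at 60 h.

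At 36 h the sorts differed by less than the fold threshold for all 45 genes. Comparing VCAM with YFP cells at 36 h, 0 of 45 genes were called by limma at the fold threshold, where 2.78% of all genes were higher and 2.49% lower, and 23 passed the adjusted p alone. Of these 17 were higher and 6 lower, against 19.6% and 17.7% of all genes. The differences ran from -0.58, for Imp3, to 0.46, for Nop56. QSCs differed more. Between VCAM and YFP QSCs 10 of 45 genes were called lower and 0 higher (1.74% of all genes higher and 1.82% lower), and all 45 differences were negative, with a median of -0.47. The 10 were Rrp12, Heatr1, Rrp1b, Nip7, Noc4l, Ftsj3, Nop2, Pes1, Tsr1 and Nolc1, with differences of -0.83 to -0.59. Rrp12 had 8.46, 8.37 and 8.44 in VCAM QSCs, against 9.19, 9.24 and 9.34 in YFP QSCs. Without the first array of young VCAM QSCs, which had the lowest mean over the 45 genes, 6 genes were called. Pericyte and smooth muscle markers also differed, at 10.16 to 10.25 in VCAM QSCs and 9.28 to 9.32 in YFP QSCs with 5 of 10 called higher, and their part in the difference was not tested. DNA replication genes had 0 of 33 called between the same QSCs, which is near the share of all genes.

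Old VCAM QSCs had higher levels of ribosome biogenesis genes than young VCAM QSCs, but not than young YFP QSCs. The mean over the 45 genes was 10.15 to 10.17 in old VCAM QSCs, against 9.72 to 9.82 in young VCAM QSCs and 10.20 to 10.29 in young YFP QSCs. The other young group thus lay above the old one, and old VCAM and young YFP QSCs differ in age, sort, genotype and Tamoxifen together. Comparing old with young VCAM QSCs, 8 of 45 genes were called higher and 0 lower, where 3.04% of all genes were called higher and 4.7% lower. The median difference was 0.41, against 0.02 for all genes, 43 of 45 differences were positive, and 36 passed the adjusted p as higher, where 16.7% of all genes did. Nolc1, the snoRNP chaperone, had 10.84, 10.92 and 10.98 in old QSCs, against 9.86, 9.95 and 9.97 in young QSCs. The difference was 0.99 (SE 0.05, a fold of 1.98, adjusted p = 1.4e-14), and the old QSC arrays lay just below the young 60 h arrays. Rrp12, an export and processing factor, had 9.17, 9.23 and 9.27 in old QSCs, against 8.46, 8.37 and 8.44 in young QSCs (0.80, SE 0.05, adjusted p = 3.2e-12). Nip7, which acts on the large subunit, had 9.86, 9.90 and 9.96 in old QSCs, against 9.10, 9.07 and 9.17 in young QSCs (0.79, SE 0.07, adjusted p = 2.5e-10). None of these 3 overlapped between ages. Rrp9, Heatr1, Mrto4, Fbl and Rrp1b differed by 0.69, 0.68, 0.67, 0.61 and 0.61.

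All 6 roles had a higher mean in old than in young VCAM QSCs, with no overlap between arrays. The rRNA transcription genes averaged 10.42 to 10.43 in old QSCs, against 10.09 to 10.18 in young VCAM QSCs, and the late small subunit genes 9.96 to 10.01, against 9.49 to 9.64. No gene of these 2 roles reached the fold threshold, and roles were not tested against each other. Single genes varied: Dkc1 and Ddx18 had differences of -0.07 and -0.16. Of 75 other ribosome biogenesis genes 7 were higher and 0 lower, where 3.04% of all genes were higher and 4.7% lower. Ribosomal protein genes (0 of 56 called), translation factors (0 of 38) and RNA exosome genes (0 of 13) had medians of 0.00, -0.04 and -0.07. Without the first array of young VCAM QSCs, 5 of the 45 genes were called in place of 8. Of the marker lists, 5 of 9 fibroblast genes were higher and 3 lower in old QSCs, 5 of 10 pericyte and smooth muscle genes were lower, and 3 of 12 satellite cell genes were lower. Their part in the difference was not tested.

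At 60 h old and young cells differed by less than the fold threshold for every one of the 45 genes. Of 45 genes 0 were called by limma, where 4.75% of all genes were higher and 0.657% lower, and 6 passed the adjusted p alone, all lower (13.7% of all genes). The differences ran from -0.26 to 0.13, and every one of the 45 95% intervals lay within -0.37 and 0.27, inside the fold threshold. Wdr12 had 10.79, 10.86 and 10.87 in old ASCs, against 10.79, 10.84 and 10.92 in young ASCs. Nolc1 had 11.06, 11.08 and 11.10 in old ASCs, against 11.02, 11.08 and 11.16 in young ASCs. Both genes overlapped between ages. The same 60 h arrays differed in other cell type markers: all 20 macrophage markers were higher in old ASCs, at an average of 9.53 to 9.63, against 7.74 to 7.87 in young ASCs.

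The change from QSCs to 60 h was smaller in old than in young VCAM cells, and close in size to that in young YFP cells. In old cells 25 of 45 genes were higher at 60 h than in QSCs and 0 were lower (17.8% of all genes higher and 11.7% lower), with a median change of 0.69. That median was 1.19 in young VCAM cells and 0.77 in young YFP cells, where 27 genes were higher, and the old and the YFP change were not tested against each other. The means over the 45 genes lay within 10.83 to 10.92 at 60 h in all 3 series. In QSCs they were 10.16 in old VCAM, 9.77 in young VCAM and 10.24 in young YFP cells. The smaller change in old than in young VCAM cells went with higher QSC levels, while 0 of 45 genes were called between ages at 60 h. Why QSC levels differed was not tested. The largest changes in old cells were again those of Wdr12, at 2.13, and Dkc1, at 1.88. The test of the difference between the old and the young VCAM response called 12 of 45 genes lower and 0 higher, where 6.81% of all genes were called higher and 2.16% lower. All 45 differences were negative, with a median of -0.43. Nolc1 had the largest, at -0.99 (SE 0.07, adjusted p = 1.8e-11), with 0.17 in old cells and 1.16 in young cells. Mrto4 differed by -0.90 (SE 0.08, adjusted p = 2.6e-09), with 0.97 in old cells and 1.88 in young cells. For Nip7 the changes were -0.24 in old cells and 0.62 in young cells, a difference of -0.86. The old, the young and the response comparisons share arrays and are not separate lines of evidence.

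**Figure D4:**
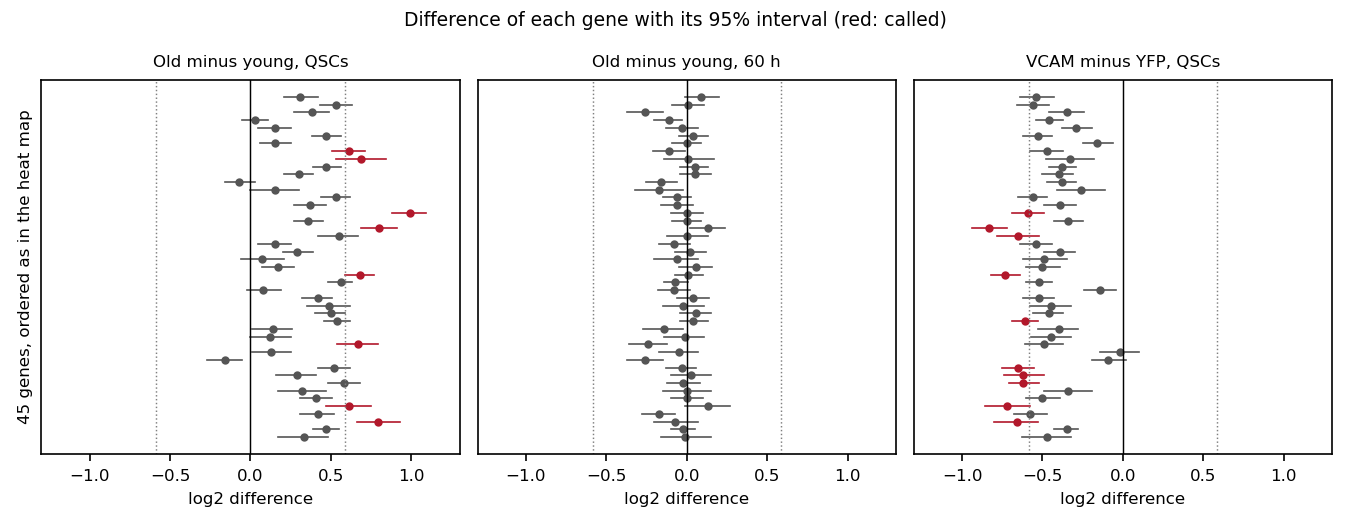
Log2 difference of each of the 45 genes (one per line, in the order of the heat map) with its 95% interval for old minus young QSCs, old minus young 60 h ASCs and VCAM minus YFP QSCs, with dotted lines at a fold of 1.5 and called genes in red. There are 8 called genes in the first panel, 0 in the second and 10 in the third.

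Related gene lists separated factors that make ribosomes from the proteins in them. At 60 h in young VCAM cells, where 16.6% of all genes were higher and 12.6% lower, 54 of 75 other ribosome biogenesis genes were higher and 1 lower. Their median was 0.85, led by Pno1 (2.18), Rpf2 (1.79), Tbl3 (1.78) and Efl1 (1.73). Of the RNA exosome, which trims rRNA precursors, 11 of 13 genes were higher, with Exosc8 at 2.34 and Exosc2 at 1.81. RNA polymerase III, which makes 5S rRNA and tRNAs, had 13 of 20 genes higher and 2 lower, with Polr3g at 2.17 and Polr3k at 1.54. Of 38 genes listed by symbol as translation factors 20 were higher and 2 lower, with Eef1e1 at 2.12 and Eif2b1 at 1.58. Ribosomal protein genes differed: 2 of 56 were higher and 1 lower, and their median was 0.02. Rps27l changed by 1.78, Rpl27 by 0.67 and Rpl26 by -0.67. For reference 33 of 33 DNA replication genes were higher, with a median of 2.54.

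Myc, whose product is a known activator of ribosome biogenesis genes, was lower in ASCs. In young VCAM cells Myc had 12.85, 12.87 and 12.92 in QSCs, 12.22 to 12.24 at 36 h, 11.84 to 11.91 at 60 h and 11.69 to 11.82 at 84 h. No ASC array overlapped the QSC arrays, and the changes were -0.65, -1.0 and -1.12 (adjusted p = 4.1e-13, 2.4e-17 and 2.3e-18). In YFP cells Myc changed by -0.67, -1.52 and -1.53, and in old cells at 60 h by -1.06. Mycn, its relative, changed by -1.11, -1.16 and -0.98 in young VCAM cells. Of the 12 genes of the MYC and MAX network 0 were higher and 5 lower at 60 h in young VCAM cells. Of all genes 16.6% were higher and 12.6% lower there. Among the 5 were Mxd4 (-1.20) and Mlxip (-0.94), which encode other members of the network. RNA level was measured here, not protein, binding or the activity of MYC.

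**Figure D5:**
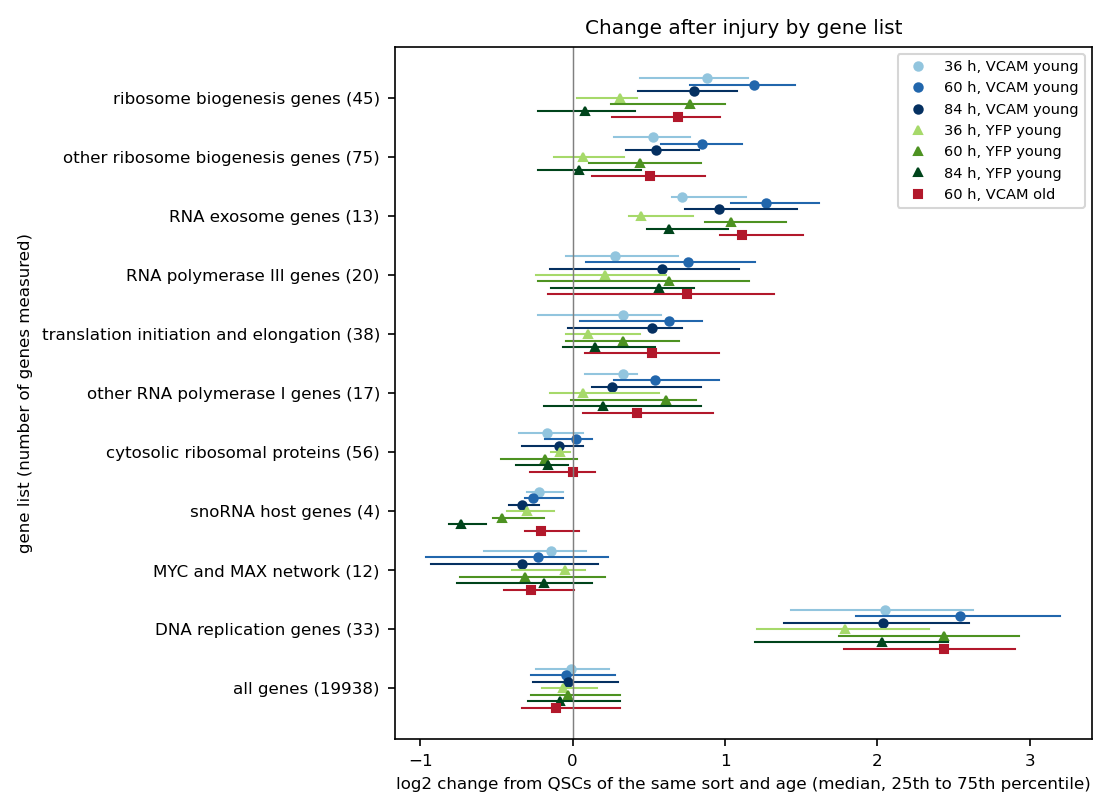
Log2 change from QSCs of the same sort and age for 11 gene lists, with points for medians and lines from the 25th to the 75th percentile, circles for young VCAM, triangles for young YFP and squares for old VCAM cells. Ribosome biogenesis, exosome and replication genes lie to the right of all genes at 60 h in every series, and ribosomal protein genes lie near 0.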

How the data were processed

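Intensities were deposited on the log2 scale, as processed by the authors with Affymetrix Expression Console and RMA (background correction, quantile normalization, probe summary; no version is given in the sources used here). There were 35556 probe sets in 30 arrays, and no further scaling was applied. Of the probe sets 21789 carry exactly 1 gene symbol in the platform annotation, 1621 several and 12146 none. Only the first were used, the brightest per gene, which left 19938 genes with no filter on dim ones. The number of arrays limits the precision.

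A model with 1 mean per group was fitted to the 30 arrays (lmFit and eBayes of limma 3.58.1, with statmod 1.5.0 and R 4.3.3) with 20 residual degrees of freedom, and 19 comparisons were taken from them. Genes were called, two-sided, at a Benjamini-Hochberg adjusted p under 0.05 over all genes, separately for each comparison, and a fold of at least 1.5. Adjusted p-values are limma's. A list is described by its counts and median, and no list was tested. The fit was tested on simulated data. The members and lists were chosen with earlier results of these data known. Single arrays are given for the largest and smallest change at 60 h per role, for members called lower than QSCs, and for up to 4 with the largest difference between sorts at 36 h or ages. From related lists up to 4 genes with the largest change are named. The arrays of Imp3, and genes named with a single value, were chosen after their values were seen. Replicate numbers were not used as pairs. Promoter sequences are from RefSeq (GRCm38.p6), with no window used here for Fbl, Rrs1, Rrp12, Bop1 and Noc2l. The alternatives tried were 2 further scalings, leaving out dim genes, other fold thresholds, probe sets, priors and array weights, the arrays compared alone, a replicate block, and leaving out each array.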

Additional observations from a re-analysis of the deposited data

Results flagged for a closer look

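The response of the ribosome biogenesis genes to injury differed between old and young VCAM cells by the test of the difference itself. It called 12 of 45 genes, all with a smaller change at 60 h in old than in young VCAM cells, with differences of -0.99 for Nolc1, -0.90 for Mrto4, -0.86 for Nip7 and -0.72 for Fbl. The median change of the 45 genes at 60 h was 0.69 in old VCAM cells, 1.19 in young VCAM cells and 0.77 in young YFP cells, and their QSC means were 10.16, 9.77 and 10.24. Their 60 h means, in the same order, were 10.85, 10.88 and 10.87, and 0 of 45 genes were called between ages at 60 h. The response differed between sorts in the same kind of test. At 36 h it called 24 genes, with a larger change in VCAM than in YFP cells of 0.94 for Polr1b, 0.94 for Utp15, 0.85 for Pes1 and 0.85 for Ftsj3. At 60 h it called 9, with 0.88 for Mrto4, 0.82 for Nip7, 0.78 for Nolc1 and 0.76 for Noc4l. At 84 h it called 27, with 1.08 for Rrp12, 1.05 for Mrto4, 0.96 for Nop16 and 0.92 for Fbl. The age test and the sort tests share the young VCAM QSC arrays. Groups of 3 arrays are too small to test single arrays as outliers.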

How the results depend on the processing

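The fold threshold set most counts of called genes among the 45. Without it the counts were 33 (36 h), 34 (84 h; 21 higher and 13 lower), 39 (60 h against 36 h) and 44 (84 h against 60 h) in YFP cells. They were 38 (60 h against 36 h) and 45 (84 h against 60 h) in young VCAM cells and 42 at 60 h in old cells. Old against young gave 37 in QSCs, 6 at 60 h and 36 for the response, and VCAM against YFP gave 43 in QSCs, 23 at 36 h and 42, 41 and 44 for the responses at 36, 60 and 84 h. With a fold of at least 2 the counts were 19 and 15 at 36 and 84 h in young VCAM cells, 1, 11 and 3 at 36, 60 and 84 h in YFP cells, and 10 in old cells. They were then 2 for the sort response at 84 h and 0 for both other sort responses, the age response, both QSC comparisons, 84 h against 60 h in both sorts and 60 h against 36 h in YFP cells.

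With each array centred on its median, which moves the median of all genes by up to 0.11, 6 genes were called at 60 h against 36 h and 7 at 84 h against 60 h in young VCAM cells, 16 between VCAM and YFP QSCs and 19 for the sort response at 60 h. Quantile normalization over the genes used gave 5 calls at 60 h against 36 h in YFP cells (4 higher and 1 lower), 5 between VCAM and YFP QSCs, 1 between the sorts at 36 h and 14 for the sort response at 36 h. Under it the median change at 84 h in YFP cells was 0.00. Leaving out one array gave 1 to 2 calls at 60 h against 36 h and 1 to 2 at 84 h against 60 h in young VCAM cells, 5 to 10 between old and young QSCs, 6 to 12 between VCAM and YFP QSCs and 0 to 1 between the sorts at 36 h. The lowest of both QSC comparisons came without the first array of young VCAM QSCs. The cause of these shifts was not tested. The counts of the 19 comparisons stayed within 1.5 times under the filter on dim genes, the mean of all probe sets, the arrays compared alone, the trended robust prior and array weights, and no gene's called change reversed under any alternative.

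Of 135 pairs of arrays with the same replicate number 27 had deviations from the group means that correlated above 0.1, with a mean of 0.035, against 25 of 270 pairs with other numbers and a mean of -0.018. Since most same-numbered pairs did not, and the labels give the number no meaning, it was not used as pairing. With the replicate number as a block, 37 genes were called at 60 h in young VCAM cells, as without it, and no call of the 45 genes changed in any of the 19 comparisons. The number of arrays and the unknown origin of replicates limit the precision: differences between animals were not measured separately.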

Other observations

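Small nucleolar RNA genes, the RNA partners of the box C/D and box H/ACA proteins, were looked at after the values were seen. By name, 54 such genes were measured. Of these 31 were Snord and 20 Snora genes, and the rest were Scarna genes, named for small Cajal body RNAs. In young VCAM cells 1 was higher and 27, 30 and 37 were lower than in QSCs at 36, 60 and 84 h, with medians of -0.57, -0.66 and -0.90. Of all genes 9.72%, 12.6% and 11.2% were called lower at these times, and 13.2%, 16.6% and 16.4% higher. In YFP cells 1 was higher and 40, 42 and 47 were lower, with medians of -0.69, -1.03 and -1.26. There 6.14%, 12.8% and 11.2% of all genes were called lower, and 10.1%, 17.2% and 17% higher. In old cells at 60 h 1 was higher and 34 were lower, with a median of -0.71 (17.8% of all genes higher and 11.7% lower). The one called higher in each was Scarna8, which changed by 2.03 at 60 h in young VCAM cells. No Snord or Snora gene was called higher in these comparisons. Snord14e had the lowest change at 60 h in young VCAM cells, at -3.28. Rmrp, the RNA of the RNase that cuts the rRNA precursor, and Rpph1, the RNA of RNase P, changed by -1.17 and -1.04 at 60 h in young VCAM cells, both called lower. The 4 measured host genes of small nucleolar RNAs averaged 10.75 in young VCAM QSCs. At 36, 60 and 84 h they averaged 10.60, 10.64 and 10.45. In YFP cells their means were 10.90 in QSCs and 10.64, 10.64 and 10.25 at these times. In old VCAM cells they were 10.74 in QSCs and 10.68 at 60 h. Whether probe sets of small nucleolar RNAs read the mature RNA or a host transcript was not tested.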
